A study of Mus musculus with 12 samples.

Results

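C2C12 is an established mouse muscle cell line that grows as single-nucleated myoblasts and fuses into multinucleated myotubes when serum is withdrawn. The cells were cultured in 10% serum between passages 15 and 18, and myotubes were taken about 5 days after the withdrawal, with the fused cells loosened from the unfused remainder by a brief trypsin treatment. In all, 6 chromatin marks were mapped by ChIP-seq in both stages, with 1 library for each mark and stage and 12 libraries altogether. No genetic change or drug separated the stages, and the line carries the C3H background. With 1 library in each group there is no replicate check, so the values below are counts, levels and ratios with counting intervals and without p-values.

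The regions described here are the broad H3K4me3 domains of myoblasts. They were selected on measured width: every H3K4me3 interval of the deposited myoblast list on chromosomes 1 to 19 that spanned at least 4000 bp and shared at least 1 base with an H3K4me3 interval of myotubes. This rule left 805 of 12243 myoblast intervals. Beside them stand 4952 shared intervals of 1500 to 2500 bp, called the comparison peaks, and the background is given over all 11141 myoblast intervals that overlapped a myotube interval. The myotube list held 17495 intervals. Another 12 wide myoblast intervals had no myotube interval and were left out by the rule.

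H3K4me3 is the trimethylated form of histone H3 lysine 4 that marks nucleosomes around transcription start sites (TSSs). At most active genes it forms a short block, and at some genes, often regulators of the identity of a cell type, it spreads into the gene body. H3K27ac marks active promoters and enhancers, H3K4me1 is typical of enhancers and of the flanks of promoters, H3K36me3 follows elongating polymerase into gene bodies, and H3K27me3 is the mark of Polycomb repression. Myoblasts hold the muscle determination factors Myod1 and Myf5 in check while they divide, and leave the cell cycle before they switch on the contractile genes.

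The sequence under a domain is shown for the 250 bp before the first annotated TSS inside it, read on the strand of the gene, from the mm9 reference, with each CpG dinucleotide in capitals. The genes were chosen to show a promoter poor in CpG with a higher H3K4me3 level in myotubes (Synpo2l), both promoters of 1 gene (Runx1), promoters of opposite CpG content with lower levels in myotubes (Id3 and Mki67), and a comparison peak of ordinary H3K4me3 level (Mios). Synpo2l lies at chr14:21483797-21484046 on the minus strand, the upstream Runx1 promoter at chr16:92826312-92826561 (minus), the downstream Runx1 promoter at chr16:92697574-92697823 (minus), Id3 at chr4:135699162-135699411 (plus), Mki67 at chr7:142908063-142908312 (minus) and Mios at chr6:8158972-8159221 (plus).
Synpo2l: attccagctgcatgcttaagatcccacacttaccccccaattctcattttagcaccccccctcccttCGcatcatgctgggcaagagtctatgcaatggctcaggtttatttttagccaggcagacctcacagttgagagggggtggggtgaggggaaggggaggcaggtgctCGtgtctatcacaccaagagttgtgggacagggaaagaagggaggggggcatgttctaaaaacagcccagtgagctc
Runx1 upstream promoter: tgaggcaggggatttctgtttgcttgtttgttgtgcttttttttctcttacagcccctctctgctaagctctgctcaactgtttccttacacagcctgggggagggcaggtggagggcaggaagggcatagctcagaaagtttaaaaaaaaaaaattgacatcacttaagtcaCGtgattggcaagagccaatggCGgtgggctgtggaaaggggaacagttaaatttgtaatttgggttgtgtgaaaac
Runx1 downstream promoter: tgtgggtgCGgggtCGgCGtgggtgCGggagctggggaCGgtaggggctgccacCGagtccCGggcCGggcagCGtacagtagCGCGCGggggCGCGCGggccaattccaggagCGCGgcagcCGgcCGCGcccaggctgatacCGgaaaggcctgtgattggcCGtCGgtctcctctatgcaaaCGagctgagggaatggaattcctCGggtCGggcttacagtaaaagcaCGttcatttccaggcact
Id3: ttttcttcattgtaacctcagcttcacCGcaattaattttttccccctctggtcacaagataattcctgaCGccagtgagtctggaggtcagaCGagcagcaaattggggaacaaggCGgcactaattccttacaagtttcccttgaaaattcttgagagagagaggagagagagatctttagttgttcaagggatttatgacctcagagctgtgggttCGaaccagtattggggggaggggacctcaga
Mki67: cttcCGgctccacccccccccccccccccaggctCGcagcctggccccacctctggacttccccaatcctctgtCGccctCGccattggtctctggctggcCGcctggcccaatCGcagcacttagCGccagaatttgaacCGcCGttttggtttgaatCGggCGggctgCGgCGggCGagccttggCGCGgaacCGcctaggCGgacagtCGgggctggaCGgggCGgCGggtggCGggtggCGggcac
Mios: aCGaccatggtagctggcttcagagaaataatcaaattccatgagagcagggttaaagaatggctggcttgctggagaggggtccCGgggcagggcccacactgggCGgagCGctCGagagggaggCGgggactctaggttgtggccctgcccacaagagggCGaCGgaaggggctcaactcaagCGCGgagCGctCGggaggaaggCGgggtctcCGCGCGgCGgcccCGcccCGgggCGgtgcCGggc
These windows held 2 CpGs at Synpo2l, 2 at the upstream and 27 at the downstream promoter of Runx1, 5 at Id3, 24 at Mki67 and 21 at Mios.

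Over the 587 domains with the TSS of a single protein-coding gene, the 250 bp before the first TSS held a median of 7.6 CpGs per 100 bp, against 6.0 at 3904 comparison peaks of the same kind. Over the whole interval the medians were close, 3.68 in domains and 3.92 in comparison peaks. The central 300 bp were poorer in CpG in domains (3.33 per 100 bp) than in comparison peaks (6.00). Domains with a single gene reached farther into it, as given below, so the centres are unlike places relative to the TSS. The 1 kb outside the edges held 1.10 and 1.05 CpGs per 100 bp. The 500 bp just inside each edge held 1.4 CpGs per 100 bp in domains and 2.0 in comparison peaks.

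The E-box CAGCTG, a motif bound by MyoD family factors, was searched on both strands of the central 1500 bp and was found in 436 of 805 domains (54.2%) and in 53.9% of comparison peaks. The AP-1 motif TGACTCA was found in 144 domains (17.9%) and in 18.4% of comparison peaks. In the 250 bp before the TSS, CAGCTG was present in 62 of 587 domains (10.6%) and in 11.2% of comparison peaks. Neither motif contains the other, and the shares of each were close in domains and comparison peaks. The central 1500 bp, like the central 300 bp, are unlike places relative to the TSS in domains and comparison peaks.

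Some domains without a protein-coding TSS lay at microRNAs, which are short RNAs that pair with messenger RNAs through their seed. The RefSeq hairpins of GRCm38.p6 were placed on mm9 by exact match, and 18 hairpins fell in or within 10 kb of 12 such domains. Mature sequences are shown for those nearest to domains discussed below, with the seed (bases 2 to 8) in capitals and with 1 arm of each hairpin; this set was chosen after its values were seen.
mmu-miR-206-3p: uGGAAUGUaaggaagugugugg
mmu-miR-133b-3p: uUUGGUCCccuucaaccagcua
mmu-miR-22-3p: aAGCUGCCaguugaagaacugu
mmu-miR-21a-5p: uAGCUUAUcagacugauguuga
mmu-miR-23a-3p: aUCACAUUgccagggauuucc
mmu-miR-214-3p: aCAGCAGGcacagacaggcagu
mmu-let-7i-5p: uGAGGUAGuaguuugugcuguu
mmu-let-7e-5p: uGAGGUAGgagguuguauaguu
Among all 35 mature arms of these hairpins 34 seeds were present, and the only shared one was GAGGUAG of let-7i-5p and let-7e-5p.

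Libraries held between 1858771 reads (myoblast H3K27ac) and 7033100 reads (myoblast H3K36me3) of 34 bases. The H3K4me3 libraries held 2774474 reads in myoblasts and 3298694 in myotubes, and the myotube H3K27ac library 4725910. A level below is a fold: the density of read midpoints in the interval, divided by the average density of that library over chromosomes 1 to 19. A domain held a median of 180 myoblast H3K4me3 reads, with a range of 54 to 837. Intervals on single values are 95% intervals of the counts and cover counting error only. In bulk cultures a mark carried by fewer cells and a lower level in each cell cannot be told apart.

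The labelled cell type was checked by H3K4me3 within 1 kb of each marker's TSS. Myoblast markers were marked in both stages: Myod1 at 15.2-fold in myoblasts and 20.3-fold in myotubes, Myf5 at 21.8 and 11.3, Des at 32.1 and 31.6, Cdh15 at 30.3 and 38.3, and Chrna1 at 37.0 and 64.3. All but Chrna1 had their TSS in a broad domain. The myotube markers Myog, Ckm, Myh3, Acta1, Tnnt3, Actc1 and Mef2c lay between 0.446 and 5.79-fold in myoblasts and between 16.5 and 80.8-fold in myotubes. Of 24 markers of other lineages 21 were found, none of them in a domain, at 0.446 to 4.90-fold in myoblasts and 0 to 6.39-fold in myotubes, with Gfap and Ptprc at 0 in myotubes.

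The lists of H3K27ac and H3K27me3 intervals in myoblasts went against their labels. The list deposited with the myoblast H3K27ac sample held H3K27ac reads at 0.562-fold and H3K27me3 reads at 6.71-fold, and the list deposited with the H3K27me3 sample held them at 34.7-fold and 0.790-fold. The former overlapped 0 of 805 domains and the latter 802 (99.6%; 90.6% of comparison peaks). In myotubes the lists followed their labels, and the H3K27ac list overlapped 787 domains (97.8%; 80.1% of comparison peaks). All levels below were therefore counted from the reads, in which the domains held H3K27ac at a median of 31.2-fold and H3K27me3 at 0.725-fold in myoblasts.

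The domains were compared first by the genes under them. A protein-coding TSS lay in 751 of 805 domains (93.3%) and in 85.4% of comparison peaks. The domains held 912 of the 10312 genes with a TSS in any myoblast H3K4me3 interval (8.84%), or 4.29% of all 21275 protein-coding genes. TSSs on both strands were present in 152 domains (18.9%) against 6.14% of comparison peaks, and 5 or more TSS positions in 116 (14.4%) against 5.74%. More than 1 gene lay in 164 domains, 157 with 2 genes and 7 with 3 or more. A longer interval has more room for a TSS, and this was not adjusted for.

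Where a domain held a single gene, it reached a median of 1265 bp upstream and 3481 bp downstream of the first TSS. In comparison peaks the medians were 636 and 1364 bp. The longer side was downstream in 538 of 587 domains (91.7%) and in 92.3% of comparison peaks. The additional width of a domain was therefore mainly inside the gene, while the share of intervals that leaned downstream was alike in both sets.

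The widest domain covered 16734 bp at Plec, which encodes the cytolinker plectin. It carried 837 H3K4me3 reads in myoblasts and 748 in myotubes, and its H3K27ac level was 140-fold in myoblasts and 113-fold in myotubes. A domain of 15170 bp at chr15:85498859-85514028 held no protein-coding TSS, with Ppara 51966 bp away. Tnrc18 followed with 12027 bp, then a domain of 11047 bp at chr4:88577847-88588893, 51742 bp from the interferon gene Ifne. Setd1b, a subunit of an H3K4 methyltransferase complex, had 11005 bp, Irs1, the adaptor of insulin receptor signalling, 10255 bp and the MAP kinase phosphatase Dusp10 10117 bp.

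Also among the 10 widest were the domains of the long noncoding RNAs Malat1 (10343 bp) and Neat1 (10181 bp), neighbours on chromosome 19 and both components of nuclear bodies. The Malat1 domain contained 794 H3K4me3 reads in myoblasts and 1216 in myotubes, 1.29 times the myoblast level (95% interval 1.18 to 1.41). Neat1 held 691 and 828 reads, a ratio of 1.01 (0.913 to 1.12), while its interval widened to 14682 bp. The domain beside it at Gm9783, 5622 bp wide, had the second highest H3K27ac level of all, 149-fold. These 3 domains had H3K27ac ratios of 1.27, 1.19 and 0.978, each above the median of all shared intervals (0.605).

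Levels in myoblasts differed between domains and comparison peaks to an extent that depended on the mark. H3K4me3 itself, on which the width was called, had a median of 33.4-fold in domains and 25.8-fold in comparison peaks. H3K27ac stood at a median of 31.2-fold (quartiles 21.2 and 44.8) against 18.2-fold. In the central 1 kb H3K27ac was 37.9-fold against 28.8-fold, but the centre of a shorter interval lies nearer its edges. At a matched distance, 500 to 750 bp inside the edge, the mean H3K27ac level was 25.7-fold in domains and 28.1-fold in comparison peaks, so the order depended on where it was measured. Measured over the 200 kb around each interval instead of over the library mean, it was 12.7-fold against 10.2-fold. H3K4me2 was nearly alike at 35.3 and 32.2-fold, and H3K27me3 was near the library mean in both (0.725 and 0.720).

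The highest H3K27ac level was 215-fold at chr8:86723869-86729031, a domain with no protein-coding TSS with the hairpins Mir23a and Mir27a 3385 and 3539 bp away. Gm9783 and Plec came next, followed by Rhob, a small GTPase induced by growth factors, and Iffo1, an intermediate filament family gene, both at 138-fold. Myotube levels were 169-fold at the Mir23a domain, 54.2-fold at Rhob and 85.1-fold at Iffo1. Rhob thus held 0.392 times its myoblast H3K27ac level while its H3K4me3 level was nearly the same (ratio 0.938, 0.799 to 1.10).

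At the other end, the domain at chr13:21258104-21262328 had 4 H3K27ac reads in myoblasts (1.24-fold) beside 85 H3K4me3 reads. Spp1, which encodes the secreted glycoprotein osteopontin, had 8 H3K27ac reads in myoblasts and 8 in myotubes. The other 3 of the 5 lowest held no protein-coding TSS and lay at 3.90 to 5.51-fold, 1 of them 2218 bp from Btg1, an antiproliferative gene. All 3 had more H3K4me3 in myotubes, with ratios between 1.55 and 1.61. Broad H3K4me3 without high H3K27ac was therefore present but rare, and the lower quartile of all domains was 21.2-fold.

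H3K27me3 was highest at Cyp1b1, a cytochrome P450 gene, with 37 reads in myoblasts (3.16-fold) and 15 in myotubes (1.81-fold). Next were the growth-response factor Egr2 at 2.27-fold, the water channel Aqp5 at 2.17-fold, Znfx1 at 1.86-fold and the nuclear receptor Rorb at 1.80-fold. Of all domains, 153 exceeded the library mean. The counts were small and the share among other intervals is not given here, so nothing is read from this number.

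The edges of the domains were examined with H3K4me1, which is usually depleted under H3K4me3. In myoblasts the H3K4me1 level in the central 1 kb was 1.88-fold in domains and 3.00-fold in comparison peaks, and in the 1 kb outside the edges it was 5.06-fold and 2.44-fold. The ratio of the outside level to the level inside the interval had a median of 1.13 (quartiles 0.740 and 1.68) in domains and exceeded 1 in 468 of 805 (58.1%). In comparison peaks the median was 0.655. At a matched distance of 500 to 750 bp inside the edge the mean H3K4me1 level was higher in domains (8.74-fold against 5.4-fold), so the lower level in the centre of domains was measured farther from the edges than that of comparison peaks. The rim, 250 to 500 bp inside the edge, was higher in domains (9.79-fold against 6.58-fold). The level at 3000 bp outside was higher as well (4.87-fold against 2.36-fold), so the difference was not particular to the rim.

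**Figure D1:**
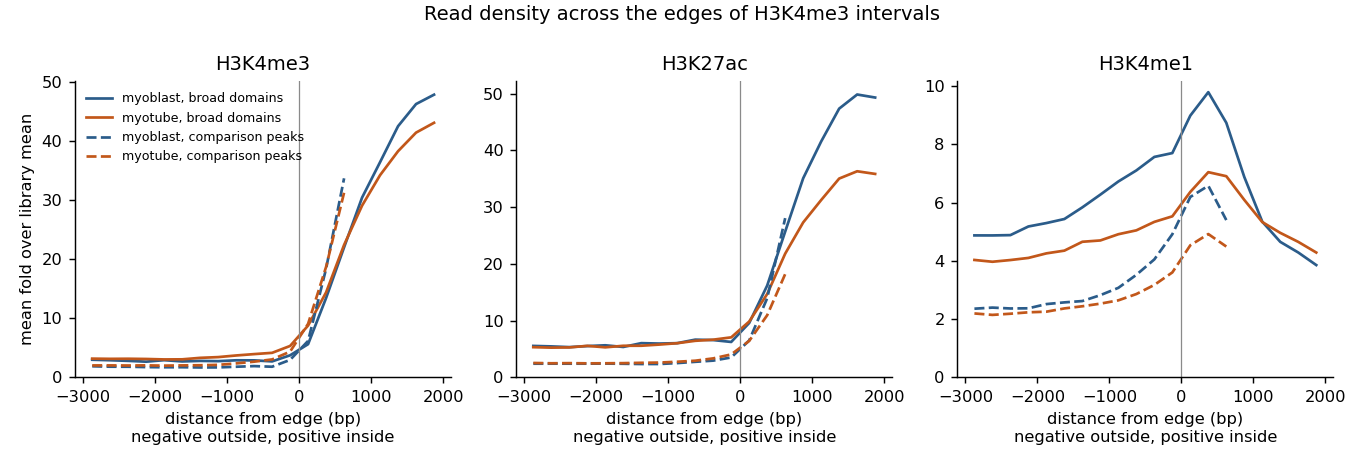
Mean level of H3K4me3, H3K27ac and H3K4me1 (fold over the library mean) against the distance from the interval edge (bp, negative values outside), for the 805 broad domains and the 4952 comparison peaks in myoblasts and myotubes. H3K4me1 of domains peaks 250 to 500 bp inside the edge (9.79-fold in myoblasts, 7.04-fold in myotubes) and falls inward while H3K4me3 and H3K27ac climb.

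Along the profile, myoblast H3K4me1 increased inward from 4.87-fold at 3000 bp outside to 6.72-fold at 1000 to 750 bp outside, peaked at 9.79-fold between 250 and 500 bp inside the edge, and declined to 3.85-fold between 1750 and 2000 bp inside. H3K4me3 reached 47.8-fold in that innermost bin, and H3K27ac peaked at 49.9-fold between 1500 and 1750 bp inside. In myotubes, on the same coordinates, the H3K4me1 rim was lower (7.04-fold) and the interior higher (4.28-fold). The median ratio of outside to inside was 0.890 in myotubes and 340 domains exceeded 1, while in comparison peaks it was 0.655 in myoblasts and 0.639 in myotubes. The coordinates were those of the myoblast intervals, so a domain that had shortened in myotubes was measured over ground it no longer covered.

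The rim was not symmetrical, in domains as in comparison peaks. In domains with 1 gene, the 1 kb beyond the downstream edge carried H3K4me1 at 6.38-fold and the 1 kb beyond the upstream edge at 3.38-fold, and the downstream level was the higher in 367 of 587. In comparison peaks the levels were 2.63 and 1.5-fold, with the downstream side higher in 2524 of 3904. H3K36me3, which begins where H3K4me3 ends inside a transcribed gene, was 5.57-fold downstream and 1.04-fold upstream and was higher downstream in 528 of 587, against 2.09 and 0.696-fold and 2996 of 3904 in comparison peaks. H3K4me2 was 6.23-fold and 2.83-fold in domains.

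Single domains differed widely in this ratio. The highest was 6.35 at Nfkbiz, an inducible regulator of NF-kappaB, where H3K4me1 was 0.934-fold inside and 6.94-fold outside. Tnrc18 had 4.05-fold inside, 0.375-fold in its central 1 kb and 17.4-fold outside, a ratio of 4.16. The lowest were Cdkn2c, a CDK inhibitor gene, at 0.116 and Cyp1b1 at 0.125. At Cyp1b1 the centre carried H3K4me1 at 27.4-fold and the outside 1.5-fold, so this domain had no rim and an interior rich in H3K4me1. Cdkn2c had no H3K4me1 read in the outside kilobases and 1.43-fold inside. Nfkbiz, Cdkn2c and the 2 values of Tnrc18 were picked for this contrast after the values were seen.

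The change in width was then measured as the summed width of the overlapping myotube intervals over the myoblast width. Domains had a median of 4632 bp (quartiles 4272 and 5399) in myoblasts and 4470 bp in myotubes, and the median ratio was 0.929 (quartiles 0.787 and 1.05), against 0.934 in comparison peaks. In 530 of 805 the myotube width was the smaller. It was 50% or less in 32 domains (3.98%; 2.76% of all shared intervals) and at least 1.5 times in 24 (2.98%; 6.17% of all). Since the rule used the myoblast width, nothing is read from these counts. The 757 myotube intervals of 4000 bp or wider that overlapped a myoblast interval, taken as a mirror set, gave 1.13, with 161 at least 1.5 times and 5 at 50% or less. The 413 myotube intervals in common were 51.3% of the domains and 54.6% of the mirror set.

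**Figure D2:**
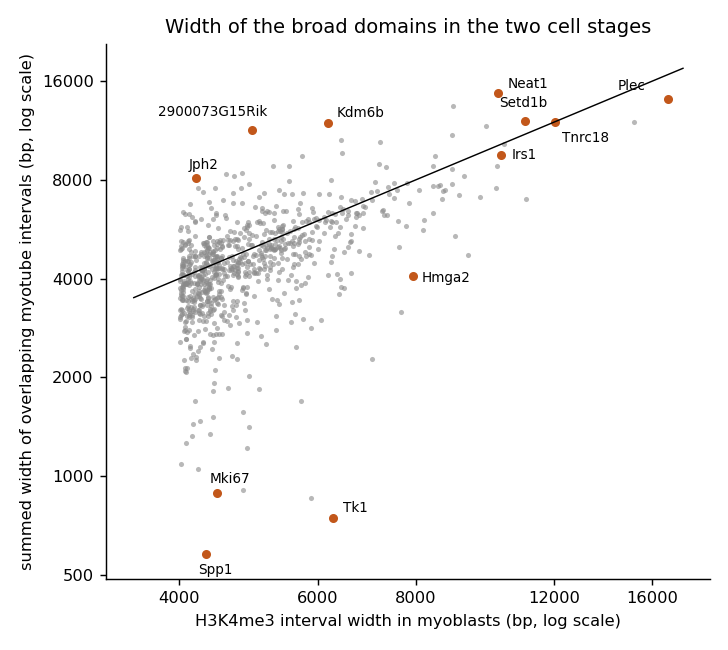
Summed width of the overlapping myotube H3K4me3 intervals (bp, log scale) against the width in myoblasts (bp, log scale) for the 805 domains; the line marks equal widths and orange points are named domains. Most points lie near or just below the line, with Kdm6b, Jph2 and 2900073G15Rik above it and Tk1, Mki67 and Spp1 far below.

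In myotubes 251 domains (31.2%) overlapped 2 or more intervals, against 244 comparison peaks (4.93%) and 9.72% of all shared intervals. A longer interval has room to overlap more of them, and nothing is read from these shares. When only the widest myotube interval was taken the median ratio was 0.860, and 104 domains were at 50% or less. When the width was instead called on both read libraries thinned to the same depth, the median ratio was 1 (1.06 in comparison peaks).

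Among the domains that were much wider in myotubes, 2900073G15Rik, a myosin regulatory light chain gene, went from 4949 to 11316 bp (2.29 times). Kdm6b, which encodes an H3K27 demethylase, went from 6175 bp to 11959 bp over 3 intervals. Its myoblast interval began at chr11:69226235, and another broad domain inside Kdm6b, 4598 bp wide, ended just before it at 69226202. The Kdm6b ratio thus depends on this gap between the myoblast intervals, and width ratios were not recomputed with joined intervals. Srgap2, a regulator of membrane shape, stood at 1.82 times, the transcriptional repressor Bhlhe40 at 1.79 and filamin C (Flnc), a protein of the Z-disc, at 1.75. H3K4me3 reads inside the myoblast interval were 203 and 329 at 2900073G15Rik, 118 and 218 at Kdm6b, and 222 and 259 at Srgap2. Srgap2 was thus wider without a higher level inside the old borders (ratio 0.984, 0.820 to 1.18).

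In the opposite direction, the domain at Tk1, the S-phase thymidine kinase, narrowed from 6284 to 747 bp (0.119 times). Ptger4, a prostaglandin E2 receptor, was at 0.145 times, Limk1, the kinase of cofilin, at 0.188, the proliferation marker Mki67 at 0.199 and Cyp1b1 at 0.249. H3K4me3 reads at Tk1 were 168 in myoblasts and 51 in myotubes, but its H3K27ac ratio was 0.644 (0.534 to 0.780), near the median of all intervals, whereas at Mki67 it was 0.0857 (0.0339 to 0.163). The Tk1 domain also holds the start of Afmid, on the other strand.

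Levels were compared inside the myoblast borders, as reads in myotubes over reads in myoblasts scaled by library totals, with 1 read added to each. A level was called higher or lower past 1.5-fold where the myoblast and myotube counts summed to 30 or more. For H3K4me3, 64 domains were higher (7.95%; 8.31% of all shared intervals) and 173 lower (21.5%; 18.7% of all). The median ratio was 0.901 in domains and 0.902 in comparison peaks. Since the members were chosen on this mark in myoblasts, nothing is read from the split. After scaling by the median of the comparison peaks, 99 domains were higher and 136 lower, and the shares of all intervals were not counted under that scaling.

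H3K27ac did not enter the rule, but its ratio went with that of H3K4me3 across domains (Spearman's rho 0.637). In the mirror set chosen wide in myotubes the median H3K27ac ratio was 0.925, so its values are not free of the selection. The median H3K27ac ratio over all shared intervals was 0.605, a shift of -0.73 on the log2 scale, so the ratios are read against that value. Domains had a median of 0.684 (quartiles 0.478 and 0.971), and 494 of 803 with enough reads (61.5%) lay above the median of all, against 46.0% of comparison peaks. Scaled by library totals, 62 domains were higher (7.72%; 8.44% of all) and 380 lower (47.3%; 56.7% of all). After division by the median of all, 223 were higher (27.8%; 25.1% of all) and 140 lower (17.4%; 24.9% of all). Scaling by the comparison peaks gave 265 higher and 109 lower, and the shares of all intervals were not counted under it. Relative to the other intervals, H3K27ac was thus lower less often in domains, and the sign of the change at a typical domain depended on the scaling.

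H3K4me1 inside the domains was nearly level, with a median ratio of 1.01. Of 801 domains with enough reads, 149 were higher (18.6%; 15.8% of all) and 108 lower (13.5%; 27.2% of all). Comparison peaks with enough reads had a median of 0.826. H3K4me2 was higher in 41 domains (5.09%; 4.32% of all) and lower in 350 (43.5%; 52.6% of all). After division by its own median over all intervals, 0.647, it was higher in 204 (25.3%; 20.1% of all) and lower in 85 (10.6%; 19.2% of all). Because the H3K4me1 counts in comparison peaks were small, only 3533 of 4952 met the limit of 30 reads.

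**Figure D3:**
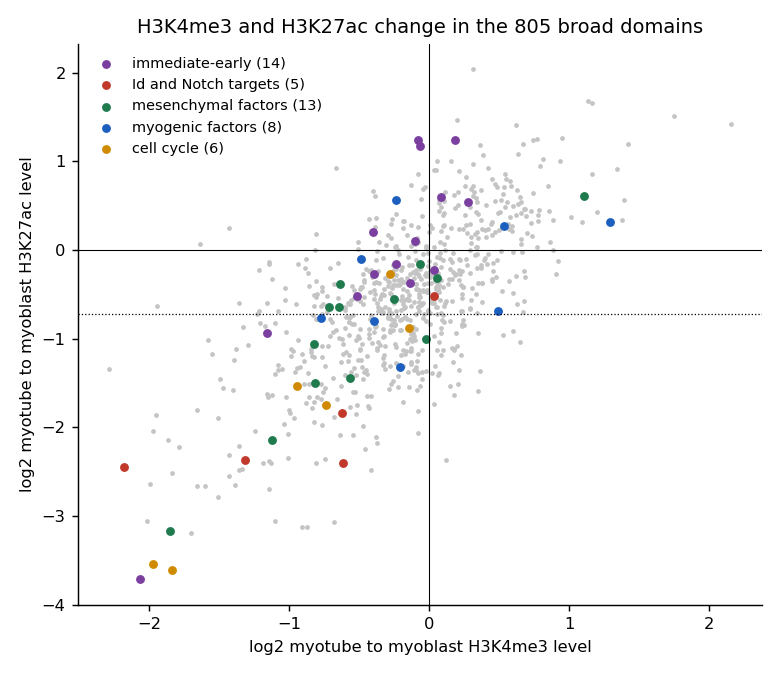
Log2 ratio of the H3K27ac level against the log2 ratio of the H3K4me3 level (myotube over myoblast) for the 805 domains, with the domains of 5 gene lists in colour and a dotted line at the H3K27ac median of all shared intervals (-0.73). Points run from lower left to upper right. Of the 803 domains with enough reads 144 were lower and 20 higher in both marks, while 1 was lower in H3K4me3 and higher in H3K27ac. These joint counts were not made over all shared intervals, of which 56.7% were lower in H3K27ac.

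The ratios of both acetylation and trimethylation went together across domains. Of 803 domains 144 were lower in both marks, 20 higher in both, 4 higher in H3K4me3 and lower in H3K27ac, and 1 the reverse. Among the domains lower in H3K4me3, 27 were called in neither direction for H3K27ac. These joint counts were not made over all shared intervals, of which 56.7% were lower in H3K27ac, so nothing is read from them. Spearman's rho across the 805 domains was 0.637 (0.494 across the 4952 comparison peaks). It was 0.723 between the H3K4me3 level and width ratios, which come from the same libraries. Regions share libraries, depth and base composition, so these values are descriptions.

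The largest H3K4me3 ratio was that of Synpo2l, which encodes a Z-disc protein: 83 reads in myoblasts and 443 in myotubes, or 17.0 and 76.6-fold, a ratio of 4.46 (3.55 to 5.76). Its H3K27ac reads were 95 and 652 (ratio 2.68, 2.18 to 3.39). Jph2, which builds the junctions between the plasma membrane and the sarcoplasmic reticulum, held 131 and 524 H3K4me3 reads (3.36, 2.78 to 4.12) and 69 and 506 H3K27ac reads (2.86). These genes of the contractile apparatus already had a broad domain in myoblasts and the levels of both marks were higher in myotubes under each scaling tried.

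Asb5, an ankyrin repeat and SOCS box gene, held 136 and 434 H3K4me3 reads (2.68, 2.22 to 3.29), the cytolinker gene Dst 74 and 232 (2.62, 2.03 to 3.48), and the growth factor gene Tgfb3 115 and 356 (2.60, 2.11 to 3.25). Tead4, a TEA domain factor of muscle genes and a member of the list of myogenic factors, stood at 134 and 390 reads (2.44, 2.01 to 3.01). At Tgfb3 and Tead4 the H3K27ac ratio was lower, 1.26 and 1.24, and still above the median of all intervals.

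The lowest H3K4me3 ratio was that of Spp1, with 73 and 17 reads (0.205, 0.109 to 0.336). Id3, whose product binds E-proteins and keeps them from pairing with MyoD, held 229 and 59 H3K4me3 reads (0.220, 0.160 to 0.290) and 284 and 132 H3K27ac reads (0.184, 0.148 to 0.226). Fosl1, the AP-1 subunit Fra-1, held 179 and 50 (0.239) and had the lowest H3K27ac ratio of all domains, 0.0763 (0.0519 to 0.105), from 211 and 40 reads. Cdc20, the activator of the anaphase-promoting complex, held 108 and 31 (0.248), and Slc1a5, a glutamine transporter, 117 and 34 (0.250). In each of these but Spp1, which had almost no H3K27ac in either stage, H3K27ac was lower as well, with ratios from 0.0763 to 0.184.

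**Figure D4:**
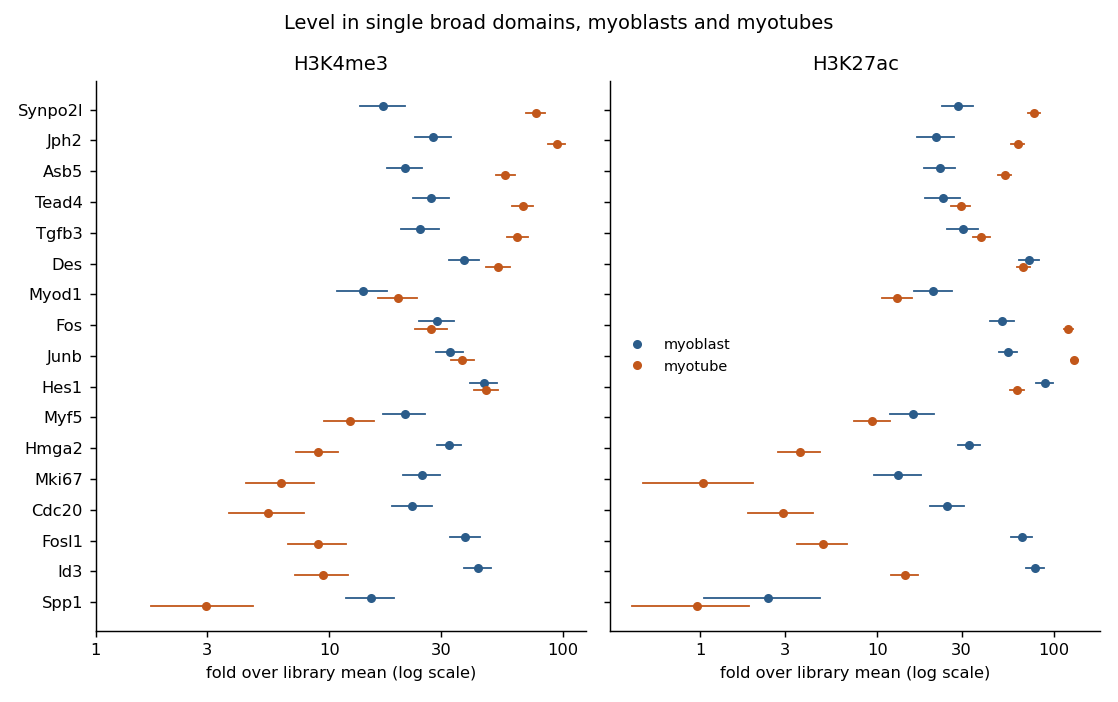
H3K4me3 and H3K27ac levels (fold over the library mean, log scale) of named domains in myoblasts and myotubes, with 95% counting intervals. Id3, Fosl1, Cdc20, Mki67 and Hmga2 are lower in both marks in myotubes, Synpo2l, Jph2 and Asb5 are higher in both, and Junb and Fos differ in H3K27ac only.

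Domains that were higher and lower in H3K4me3 differed in base composition. The 64 higher ones held 2.74 CpGs per 100 bp over the interval and 5.6 before the TSS, and the 173 lower ones 3.64 and 7.2. The same order was seen in the comparison peaks, with 2.94 per 100 bp in the 349 higher and 4.43 in the 925 lower. CAGCTG lay in the 250 bp before the TSS in 8 of 51 higher domains (15.7%) and in 15 of 142 lower domains (10.6%), against 18.6% and 11.8% in comparison peaks. In the central 1500 bp the order was reversed in domains, with 33 of 64 higher (51.6%) and 95 of 173 lower (54.9%). In comparison peaks these shares were 60.2% and 55.9%. The order in domains thus depended on the window, and nothing is read from it. The 250 bp windows of Synpo2l and Jph2 each contained 1 such motif, as did that of Fosl1, a lower domain. The windows of the higher domains of Asb5, Tead4, Tgfb3 and the upstream Runx1 promoter contained 0. Those of the lower domains of Id3, Mki67, Cdc20, Spp1 and Hmga2 contained 0 as well.

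Gene lists were then taken by role. Counts of called members stand beside the shares of all shared intervals given above, 8.31% higher and 18.7% lower for H3K4me3 and 8.44% higher and 56.7% lower for H3K27ac. Of 16 myogenic factors 8 had their TSS in a broad domain and 0 in a comparison peak. The median H3K4me3 ratio of these 8 was 0.857, 1 being higher (Tead4) and 1 lower (Myf5), and H3K27ac was lower in 4 and higher in 0, a share of lower calls near that of all intervals. Myod1 held 67 and 112 H3K4me3 reads (ratio 1.40, 1.03 to 1.94) in 4276 bp and Myf5 97 and 67 (0.585, 0.420 to 0.804) in 4119 bp. The serum response factor gene Srf held 178 and 179 reads (0.848) with an H3K27ac ratio of 1.48, and Mef2d, a MADS-box partner of MyoD, 229 and 394 (1.45). Six4 and Eya1, which act together upstream of the determination factors, had ratios of 0.866 and 0.713.

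Inhibitors of myogenic bHLH factors and Notch targets had 5 of 13 genes in domains: Id1, Id2, Id3, Hes1 and Hey1. H3K4me3 was lower at 4 of them and their median H3K27ac ratio was 0.193. Id1 held 287 and 136 H3K4me3 reads (0.401), Id2 134 and 103 (0.650), and Hey1 117 and 90 (0.650), while Hes1 held 229 and 278 (1.02, 0.857 to 1.22). The H3K27ac ratios were 0.193 at Id1, 0.279 at Id2 and 0.189 at Hey1. Hes1 stood apart from the other 4 with 0.696, close to the median of the domains.

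Transcription factors of mesenchymal cells had 12 of 23 genes in 13 domains, 7 of them lower in H3K4me3 and 1 higher, with a median ratio of 0.644. Hmga2, an architectural chromatin protein of proliferating cells, held 289 and 94 reads (0.276, 0.215 to 0.347) and 201 and 56 H3K27ac reads (0.111). Foxc2 stood at 0.458, Runx2 at 0.566, Sox4 at 0.569 and Zeb2 at 0.644, while Meis1 and Tbx3 were at 0.954 and 0.838. Snai1 and Snai2, repressors known from epithelial-mesenchymal transition, had 0.609 and 0.638.

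Immediate-early genes, which respond to serum within minutes, had 14 of 21 genes in domains and 0 in comparison peaks, the largest share of any list examined (66.7%). Their median H3K4me3 ratio was 0.920, with 2 lower (Fosl1 and Cyr61) and 0 higher. H3K27ac was higher at 4 of them: Junb, with 269 and 1617 reads (2.36, 2.08 to 2.71), Fos, with 166 and 998 (2.36, 2.01 to 2.81), Klf6 (2.26) and Egr2 (1.52). It was lower at 2, Fosl1 (0.0763) and Cyr61 (0.523). At Junb and Fos the H3K4me3 ratios were 1.13 (0.955 to 1.35) and 0.947 (0.748 to 1.20). These 2 domains thus differed between the stages in acetylation and not measurably in H3K4me3. Myc and Jun had H3K27ac ratios of 0.830 and 0.776 and Egr1 0.700.

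Of 22 cell cycle genes 6 were in domains, Ccnd1, Cdk6, Cdkn1b, Cdkn2c, E2f3 and Mki67, and 4 were lower in H3K4me3 and 5 in H3K27ac, with median ratios of 0.559 and 0.321. Of 38 genes of growth factor signalling 14 were in domains, 3 higher and 3 lower in H3K4me3, with 8 lower and 0 higher in H3K27ac, again near the share of all intervals. Matrix and cytoskeleton genes had 12 of 27 in domains, 1 higher and 2 lower. Of 39 Hox genes 8 were in domains of the Hoxa and Hoxc clusters, 3 lower and 0 higher.

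**Figure D5:**
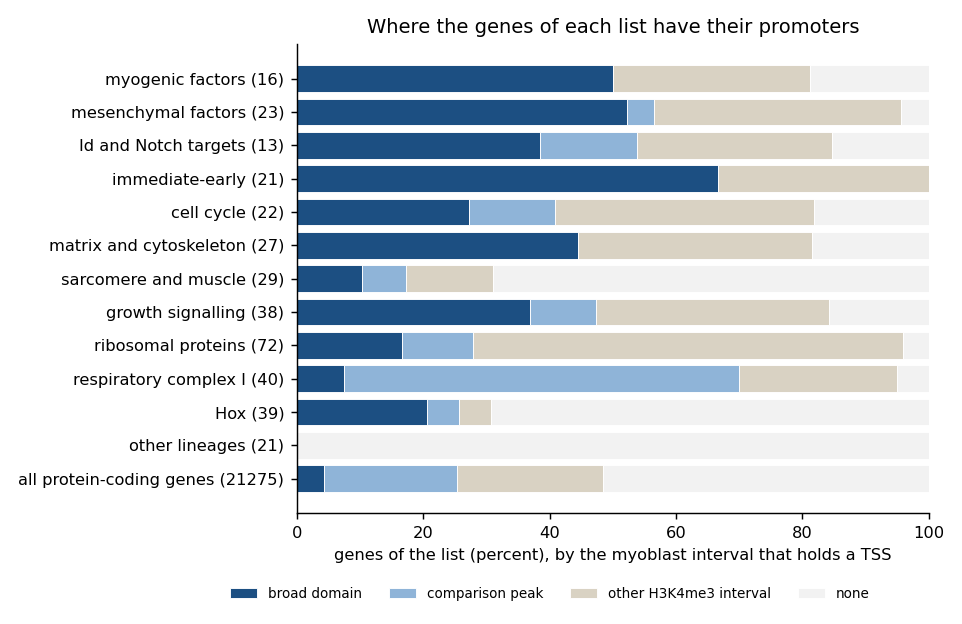
Share of the genes of each list (percent) whose TSS lies in a broad domain, a comparison peak, another myoblast H3K4me3 interval or none. Immediate-early genes (66.7% in domains) and mesenchymal factors (52.2%) lie above all protein-coding genes (4.29%). Among genes with a TSS in any myoblast H3K4me3 interval the share is 8.84%. Complex I genes lie mostly in comparison peaks (25 of 40).

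Genes of the sarcomere and of muscle structure had 3 of 29 in domains (10.3%; Des, Cdh15 and Homer1), and 20 of the 29 had no H3K4me3 interval over their TSS in myoblasts. Des, the muscle intermediate filament, held 176 and 292 reads (1.40, 1.16 to 1.70), Cdh15, the cadherin of myoblasts, 178 and 226 (1.07), and Homer1 106 and 147 (1.17). Ribosomal protein genes had 12 of 72 in domains and 49 in H3K4me3 intervals of other widths. Complex I genes of the respiratory chain had 3 of 40 in domains and 25 in comparison peaks. The lists are given beside the 4.29% of all protein-coding genes, or 8.84% of those with a TSS in any myoblast H3K4me3 interval, and no list was tested.

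A number of genes had 2 broad domains at separate promoters, and these could differ. At Dst, the domain at chr1:33962756-33966884 held 174 and 72 H3K4me3 reads (0.352, 0.261 to 0.462) and that at chr1:34176819-34181629 held 74 and 232 (2.62). The H3K27ac ratios were 0.145 and 1.48. At Runx1, whose promoter sequences are shown above, the domain of the CpG-rich downstream promoter held 262 and 323 reads (1.04, 0.881 to 1.23), and the domain of the CpG-poor upstream promoter 217 and 555 (2.15, 1.84 to 2.54). The latter widened from 4447 to 7543 bp. At Dst the domains differed from myoblasts in opposite directions, and at Runx1 the downstream promoter was level and the upstream promoter higher.

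Mbnl1, a splicing regulator, held 193 and 202 (0.883) and 62 and 137 (1.85, 1.37 to 2.56). Dnajb4, a heat shock protein gene, had ratios of 1.47 (1.21 to 1.79) and 0.713 (0.583 to 0.871). These genes were described because their domains differed. Of 10 genes with 2 domains, the counting intervals of the H3K4me3 ratios were apart in 6, Hoxa10 among them (0.516 and 0.959), and overlapped in 4, which were Baz2a, Hoxa9, Mgat4b and Slc3a2. Hoxa9 and Hoxa10 have 1 of these domains in common. The share among other genes with 2 shared intervals was not counted, so nothing is read from this number.

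The 54 domains without a protein-coding TSS had a median width of 4798 bp. Of these, 21 lay inside a protein-coding gene and 33 outside, 22 held a TSS of another gene type, and the nearest protein-coding TSS was at a median of 23021 bp. They held 2.30 CpGs per 100 bp, fewer than all domains (3.68). The median ratios were 0.919 for H3K4me3 and 0.874 for H3K27ac. In H3K4me3, 10 of the 54 were higher and 11 lower, beside 8.31% higher and 18.7% lower of all shared intervals. These calls were not counted in comparison peaks without a protein-coding TSS, and nothing is read from them. CAGCTG was found in the central 1500 bp of 61.1% and TGACTCA in 25.9%, against 61.0% and 30.2% of the comparison peaks without a protein-coding TSS.

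Among the microRNA domains, the one at chr1:20659843-20664743, 4347 bp from Mir206 and 8106 bp from Mir133b, held 130 and 347 H3K4me3 reads, a ratio of 2.24 (1.84 to 2.78). Its H3K27ac ratio was 3.15 (2.40 to 4.37) and its width went from 4901 to 7794 bp. miR-206 and miR-133b, whose seeds GGAAUGU and UUGGUCC are shown above, are known as muscle microRNAs. The Mir22 domain held 237 and 425 reads (1.51, 1.29 to 1.78), and the Mir21a domain, inside Vmp1, 389 and 532 (1.15, 1.01 to 1.32) with an H3K27ac ratio of 1.57 (1.39 to 1.80). The Mir23a domain held 393 and 407 reads (0.874, 0.759 to 1.01).

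Of the other 8 microRNA domains, those of Mir7060, Mir3089 and Mir193a had H3K4me3 ratios of 1.27, 1.03 and 0.937, and those of Mir196a-2 and Mir101a 0.798 and 0.741. The remaining 3 had the lowest ratios, and those of Mirlet7i and Mirlet7e were past the 1.5-fold limit. The domain of Mir199a-2 and Mir214 held 160 and 133 H3K4me3 reads (0.702, 0.553 to 0.888) with H3K27ac at 1.01. The domain of Mirlet7i held 162 and 122 (0.637, 0.498 to 0.809), and that of Mirlet7e and Mir125a 181 and 121 (0.565, 0.444 to 0.714). The 2 let-7 hairpins with the common seed GAGGUAG thus both lay at domains with less H3K4me3 in myotubes. These libraries do not measure the microRNAs themselves.

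H3K36me3 over the gene body, a mark of transcription, was counted from libraries the rule did not use. The genes were still chosen by a domain wide in myoblasts, and no mirror set or other scaling was run for this mark. The values below are therefore descriptions. The median H3K36me3 level in myoblasts was 7.68-fold over 498 single-gene domains and 4.18-fold over 3708 comparison peaks, and in myotubes 5.94 and 4.31-fold. The median ratio was 0.839 in domains and 1.08 in comparison peaks. In genes whose domain was lower in H3K4me3 it was 0.654 (110 genes), in those called in neither direction 0.891 (341 genes, 340 of them with enough reads) and in those higher 0.958 (47 genes). The same order was seen in comparison peaks, at 0.918, 1.09 and 1.36.

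Single genes spanned a wide range. Mki67 held 446 H3K36me3 reads over its body in myoblasts and 29 in myotubes (0.109 times), Hmga2 2609 and 308 (0.192), Fosl1 178 and 31 (0.290) and Irs1 811 and 168 (0.338). Among the domains with more H3K4me3, Jph2 held 1123 and 1294 reads (1.87), Tead4 993 and 1066 (1.74) and Tgfb3 433 and 420 (1.57), whereas Asb5 held 451 and 209 (0.754). Ratios here are scaled by library totals, 6881331 reads on chromosomes 1 to 19 in myoblasts and 4241057 in myotubes. These genes were taken from those named above after their values were seen.

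The 4000 bp limit cut a continuous range of widths. Just inside it were Ptp4a1 (4002 bp; H3K4me3 19.8-fold and H3K27ac 43.5-fold in myoblasts), Ivns1abp (4002 bp; 28.7 and 29.1) and Baiap2 (4003 bp; 27.8 and 22.2). Just outside were Hsp90ab1 (3999 bp; 37.0 and 33.1), Fam108b (3998 bp; 35.4 and 18.0) and Cav1 (3998 bp; 21.8 and 22.6). The levels on both sides were of the same order.

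The 12 wide intervals without a myotube interval lay at Msc, Dlx2, Syt13, Thbd, Foxs1, Fam83d, Eps8, Plaur, Col4a1 with Col4a2, Sema7a, Rara and Has1. At Msc, which encodes musculin, a bHLH repressor of the muscle programme, H3K4me3 was 16.6-fold in myoblasts and 2.99-fold in myotubes, and H3K27ac 27.9 and 0.641-fold. At Foxs1 H3K4me3 was 35.2 and 4.83-fold, and at Has1, a hyaluronan synthase, 15.3 and 1.10-fold. The rule leaves out these intervals because no myotube interval overlapped them. Their H3K4me3 level in myotubes ran from 1.10-fold at Has1 to 9.17-fold at Fam83d. Some domains kept by the rule lay within this range, such as Spp1 at 2.96-fold.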

How the data were processed

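Alignment by the authors was to mouse mm9 (NCBIM37), using Mosaik with its default parameters, and only unique alignments were kept, as their methods state for the myoblast libraries. The deposited read files give 1 line per aligned read, which was used as a count of 1. The deposited interval lists carry a MACS score; the control, version and limits of that step are not given in the sources used here. No input library was analysed here, and 57 of the 805 domains share the score of 3100, so the score was not used to rank domains. Library preparation included 15 PCR cycles on fragments of about 250 bp, and reads are not distinguished by molecular identifiers.

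Reads were extended to 150 bp and their midpoints counted in each interval on chromosomes 1 to 19, and divided by the mean of the library. Level ratios were scaled by library totals with 1 read added to both counts, with exact conditional binomial 95% intervals, and exact Poisson intervals for single levels. A change was called past 1.5-fold with 30 or more reads in both libraries together. Genes and TSSs came from the GENCODE M1 annotation of NCBIM37. Widths are those of the deposited intervals. Gene-body H3K36me3 was counted from the downstream edge of the interval to the end of the gene, where that was 2000 bp or longer. Counting was tested on simulated reads with known answers. Scripts ran in Python 3.11.15 with scipy 1.17.1 for the intervals, pandas 2.3.3 and numpy 2.4.6 for the tables and matplotlib 3.10.9 for the plots.

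Depth ranged from 1858771 to 7033100 reads, so that a domain held a median of 116 H3K27ac reads in myoblasts. With 1 library for each mark and stage no test was made, and regions are not replicates. The members and gene lists were chosen with earlier results of these data known. Named domains are the 10 widest, the 5 largest H3K4me3 level and width changes in each direction, the 5 highest and 5 lowest in H3K27ac, the 5 highest in H3K27me3, those of 5 gene lists, and the 3 on either side of the width limit. A few domains within this rule are not reported here. Promoter windows of 250 bp before the TSS were shown in place of windows around it. The alternatives were other width limits, joined intervals, extension lengths, 1 read per position, scalings, added reads, thinned libraries, background windows and sets chosen wide in myotubes. The mirror set was added for the level ratios after the data were seen.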

Additional observations from a re-analysis of the deposited data

How the results depend on the processing

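The 7 main values were recomputed under 56 alternatives in all. The number of domains was 1397 with a limit of 3500 bp and 292 with 5000 bp, 968 when intervals within 1 kb were joined and 799 with a score of at least 100. The H3K27ac level of domains in myoblasts was 12.7-fold over the surrounding 200 kb, and the overlap with the lists deposited with the H3K27ac and H3K27me3 samples was 0% and 99.6%. In the mirror set chosen wide in myotubes the width ratio was 1.13 and the H3K4me3 level ratio 1.23, with 242 higher and 34 lower, against 0.929 and 0.901 in domains, so the side of 1 on which these medians fall follows the stage in which the intervals were selected. The H3K27ac level ratio was 0.925 in the mirror set. Scaling by the comparison peaks took the H3K27ac level ratio to 1.23, against 0.660 to 0.698 under the alternatives other than that scaling and the mirror set. The ratio of H3K4me1 outside to inside lay between 1.01 and 1.24, and the share of domains with a protein-coding TSS between 92.1% and 93.9%. No paired analysis was possible because each mark and stage had 1 library. For the same reason no library could be left out.

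Depth limits the smallest counts most. H3K27me3 reads in a domain numbered 10 at the median in myoblasts and 6 in myotubes, so that 67 of 805 domains met the limit of 30 reads for its change and no result is drawn from it, and H3K4me1 in comparison peaks often fell below 30 reads. A mark that spreads beyond the myoblast borders was not counted there in the level ratios. Separate cultures, fused against unfused cells and sequencing runs cannot be told apart from the stage.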
